A study of Mus musculus with 6 samples.

Results

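Aldehyde, flavin, sulfate and epoxide detoxification enzymes of the olfactory epithelium were examined through 10 genes. They were the probe sets whose platform symbol was exactly Aldh1a1, Aldh1a7, Aldh3a1, Cbr2, Fmo1, Fmo2, Fmo5, Sult1c1, Sult1d1 or Ephx1. All 10 were on the array, at 17 of its 45037 non-control probe sets, among 18193 named genes. Olfactory epithelium had been microdissected from 6 male mice aged 6 months, each profiled on 1 Affymetrix array. The 3 Harlequin mice were Hq/Y on the strain that the labels call B6CBACAw-J/A-Pdcd8-Hq/J, and the 3 littermate controls were +/Y on B6CBACa. The mutation lies in Aifm1 (older name Pdcd8), an X-linked gene whose product, apoptosis-inducing factor, is needed for normal respiratory complex I, and the stated aim was to find expression changes behind neurodegeneration under oxidative stress. The strain field differs along with the genotype although the controls are called littermates, so any difference in strain background cannot be told apart from genotype.

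The lining of the nose meets inhaled chemicals first and carries a dense set of enzymes that make them harmless. Carbonyl reductases, aldehyde dehydrogenases, flavin monooxygenases and epoxide hydrolases alter a reactive group, and sulfotransferases then attach a sulfate that makes the product easier to clear. In olfactory mucosa such enzymes are concentrated in sustentacular cells, the supporting cells around the sensory neurons, and in Bowman glands, and they also act on odorants. Aldehydes are, in addition, formed when oxidative stress breaks down membrane lipids.

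The arrays matched their labels where this could be checked. Aifm1 fell in Harlequin mice, to 211.2 to 335.4 signal units against 1128.2 to 1255.6 in controls (log2 difference -2.20, SE 0.18, limma adjusted p = 0.0158). The sensory neuron markers, 6 of 8 on the array, summed to 92216 to 96315 units in Harlequin mice and 90946 to 97824 in controls, and the sustentacular markers, 8 of 10 on the array, to 55846 to 57327 and 55132 to 60358. Sums did not overlap for 2 other lists. Bowman and nasal gland markers, 9 of 10 on the array, summed to 91832, 105708 and 112389 units in Harlequin mice and 118034, 113412 and 114572 in controls. Among these, Bpifb9b alone ran from 426.3 units in Harlequin replicate 1 to 29626.1 in control replicate 1. Deviations of log2 signal from each gene's mean over the 6 arrays weigh every gene alike. Averaged over the gland list, they overlapped, at -0.54, -0.03 and 0.19 in Harlequin mice and 0.02, 0.13 and 0.23 in controls. Red cell markers, 4 of 6 on the array, summed to 3042, 3723 and 2849 units in Harlequin mice and 1110, 698 and 1949 in controls. Averaged deviations of the red cell list did not overlap, at 0.49, 0.73 and 0.16 in Harlequin mice and -0.32, -0.93 and -0.12 in controls. The part of either in the results was not tested. Array medians over all probe sets were 109.6 to 113.3 in Harlequin and 107.9 to 119.7 in controls. Harlequin replicate 1 stood apart in nasal gland and airway genes, and the log2 difference of each member is also given without it.

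None of the 10 enzyme genes passed the test for a difference between Harlequin and control epithelium. For Cbr2, Sult1c1 and Sult1d1 the 95% intervals reached no further than -0.2843 and 0.1558 log2 units. Cbr2 and Sult1c1 lay near the top of the signal scale, where a probe set may respond less than in proportion to its target, which was not tested. In limma, with p-values adjusted over all 13219 genes tested, 0 of 10 passed an adjusted p of 0.05 and 0 of 10 had an unadjusted p under 0.05, where 0.0303% and 4.58% of all genes did. The lowest adjusted p among the 10 was 0.981. Tested singly, 0 of the 16 member probe sets bright enough to be tested passed, where 0.0259% of all probe sets did. All 10 passed the filter on dim genes, and their median log2 difference was -0.023, with a range of -0.24 to 0.39, beside 0.00 over all genes. For all 10 the Harlequin and control values overlapped, while 10.4% of all genes had no overlap. Levels in whole tissue cannot tell fewer cells of a type from less RNA per cell.

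The genes were among the brighter signals of the tissue. Ranked by mean control signal, with 1 the brightest of 18193 genes, Cbr2 stood at 13 and Sult1c1 at 14, within the top 0.077%. Sult1d1 ranked 126, Aldh1a1 226, Ephx1 322 and Aldh1a7 510. Fmo2, at 1563, and Aldh3a1, at 1686, lay within the top 9.27%, Fmo1 at 2683 and Fmo5 at 3716 within the top 20.4%. Probe sets differ in how strongly they bind their target, so these ranks order signals and not numbers of transcripts.

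**Figure D1:**
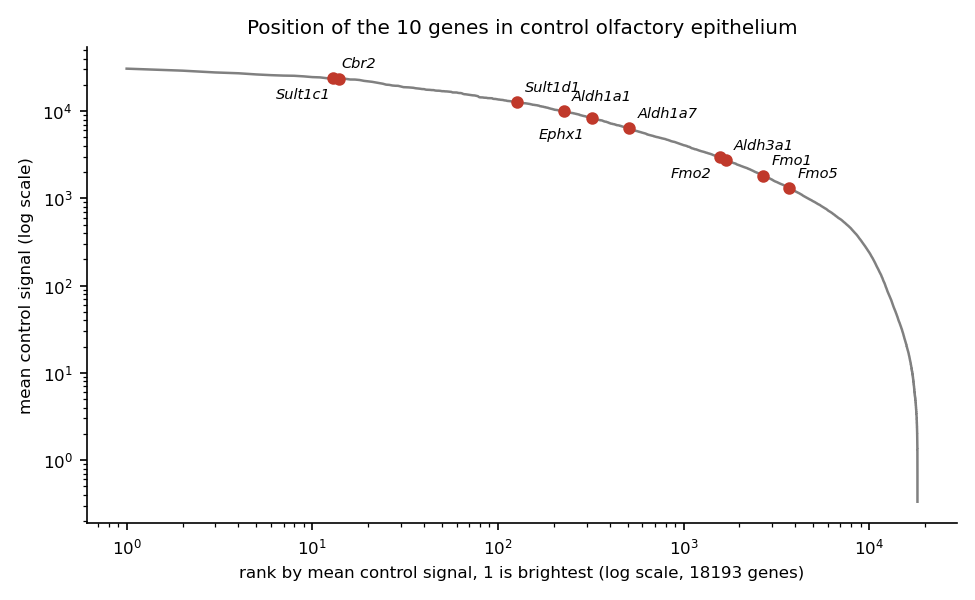
Mean signal over the 3 control arrays (log axis) against its rank among 18193 genes (log axis, 1 is brightest). The grey line is all genes and the red points are the 10 enzyme genes, from Cbr2 at rank 13 to Fmo5 at rank 3716.

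Cbr2, which reduces carbonyl groups of aldehydes, ketones and quinones with NADPH, was the brightest and the steadiest member. It gave 22775.9, 23895.4 and 23857.4 units in Harlequin mice and 23975.9, 23464.7 and 23755.9 in controls. The 6 mice lay within 1.05-fold of each other, with Harlequin replicate 1 lowest. The log2 difference was -0.014 (95% interval -0.13 to 0.11), so the interval covers a Harlequin to control ratio of 0.912 to 1.08. The highest value of any probe set on these arrays was 31786.1 units, and at signals this near the top of the scale a probe set may respond less than in proportion to its target, which was not tested. Without Harlequin replicate 1 the log2 difference was 0.009. The spread of Cbr2 within genotypes ranked 13171 of 13219 genes, among the smallest.

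Aldh1a1 and Aldh1a7 encode closely related cytosolic aldehyde dehydrogenases. The first oxidises retinaldehyde to retinoic acid as well as other aldehydes, while the second does little with retinaldehyde. They lie side by side on chromosome 19, with 3 entries and 0 protein-coding genes between them in the RefSeq table. Their upstream sequences are shown because the 2 genes share much of this region while their signals followed different mice. Each line gives the 250 bases before a RefSeq transcript start, 5′ to 3′ on the gene's own strand, in build GRCm38.p6. Capitals mark the longest run of bases that both share, 65 bases ending 29 bases before the start. For Aldh1a1, the second of its windows in the table is printed.
Aldh1a1 (chr19:20601718-20601967, plus strand): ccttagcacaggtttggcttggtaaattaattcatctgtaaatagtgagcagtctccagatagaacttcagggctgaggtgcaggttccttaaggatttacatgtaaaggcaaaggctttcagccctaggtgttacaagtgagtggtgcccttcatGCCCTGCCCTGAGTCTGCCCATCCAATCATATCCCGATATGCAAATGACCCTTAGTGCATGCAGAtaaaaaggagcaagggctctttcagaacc
Aldh1a7 (chr19:20727557-20727806, minus strand): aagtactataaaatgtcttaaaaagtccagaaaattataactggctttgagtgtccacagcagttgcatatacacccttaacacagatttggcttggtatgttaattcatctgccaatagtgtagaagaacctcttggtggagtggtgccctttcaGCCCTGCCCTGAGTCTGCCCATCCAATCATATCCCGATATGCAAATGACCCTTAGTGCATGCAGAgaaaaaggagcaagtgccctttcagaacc
Over their length 185 of 272 aligned columns (68.0%) were identical, with 44 columns holding a gap, against 53.9% between Aldh1a7 and the other Aldh1a1 window.

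Aldh1a1 gave 16117.4, 8403.4 and 8054.1 units in Harlequin mice and 8152.1, 10407.0 and 11146.0 in controls. Harlequin replicate 1 was the highest of all mice, and the other Harlequin mice lay at the level of the lowest control. The log2 difference was 0.07 (SE 0.25, 95% interval -0.50 to 0.64, limma adjusted p = 0.995), and without Harlequin replicate 1 it was -0.25 (adjusted p = 0.926). Aldh1a7 gave 4879.7, 6178.0 and 4920.5 units in Harlequin mice and 6708.5, 5287.8 and 6949.9 in controls. Here Harlequin replicate 1 was the lowest mouse, and Harlequin replicate 2 lay above control replicate 2, so the genotypes overlapped. Aldh1a7 had the most negative difference of the 10, -0.24 (SE 0.13, 95% interval -0.55 to 0.06, limma adjusted p = 0.981), with a Harlequin mean of 84.3% of control. Without Harlequin replicate 1 the Aldh1a7 difference was -0.185, less negative than the -0.25 of Aldh1a1.

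Aldh3a1 oxidises aromatic and medium-chain aldehydes, including products of lipid peroxidation, and is a major soluble protein of the mouse cornea. It gave 7980.5, 2106.5 and 2181.0 units in Harlequin mice and 1453.3, 2799.9 and 3987.1 in controls. Harlequin replicate 1 was 3.79-fold above the lowest Harlequin mouse, and the controls spread over 2.74-fold. The other Harlequin mice lay between control replicates 1 and 2. With a mean of 4089 ± 3370 in Harlequin and 2747 ± 1270 in controls (SD, n = 3 each), the log2 difference of 0.39 was smaller than its SE of 0.53 (95% interval -0.83 to 1.61, limma adjusted p = 0.982). It turned to -0.24 when Harlequin replicate 1 was left out, and to -0.007 when control replicate 1 was. The within-genotype spread of Aldh3a1 ranked 91 of 13219 genes, in the top 0.688%. Aldh1a1 followed at rank 1128, and the next member, Fmo5, came at rank 2635.

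**Figure D2:**
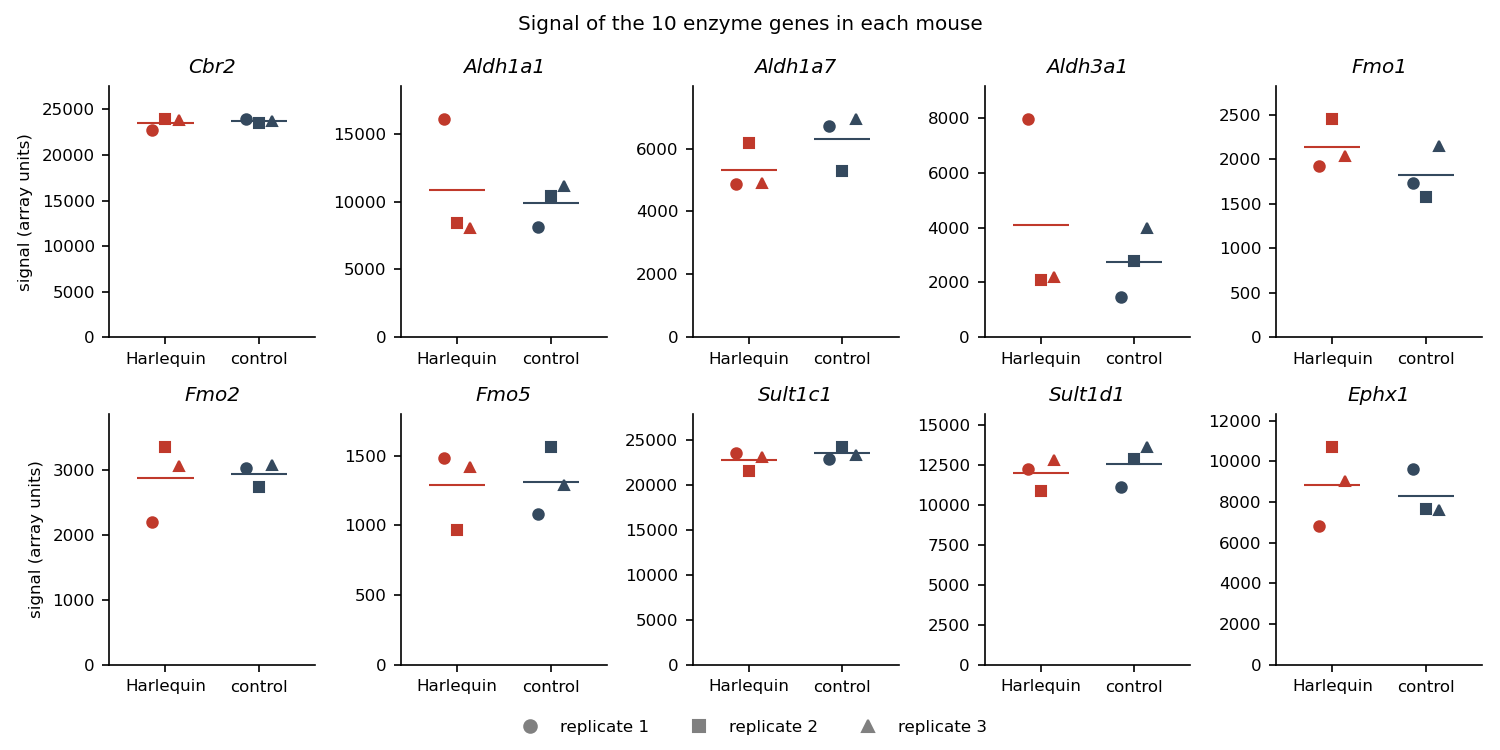
Signal in array units for each of the 10 genes, Harlequin mice in red on the left and controls in dark blue on the right of each panel, linear axes from 0. Symbols are the 3 replicates and lines the group means, and only Harlequin replicate 1 stands apart for Aldh3a1 and Aldh1a1.

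Flavin monooxygenases add oxygen to nitrogen and sulfur atoms of foreign compounds. Fmo1 gave 1924.7, 2452.5 and 2035.1 units in Harlequin mice and 1734.7, 1572.7 and 2145.8 in controls. All but control replicate 3 among the controls lay below the Harlequin mice. The log2 difference was 0.24 (SE 0.14, 95% interval -0.09 to 0.56, limma adjusted p = 0.981), or 0.307 without Harlequin replicate 1. Fmo2, its neighbour on chromosome 1 with 0 protein-coding genes between them, is the main form in lung of many mammals. At its brightest probe set it gave 2208.5, 3365.4 and 3064.1 units in Harlequin mice and 3035.5, 2734.0 and 3077.2 in controls. The Harlequin mice held both the lowest and the highest value, and the log2 difference was -0.055 (95% interval -0.40 to 0.29), or 0.124 without Harlequin replicate 1. Of its other 4 probe sets, 3 had differences of 0.07 to 0.27. The remaining one, at 38.5 ± 16.7 units in Harlequin and 58.0 ± 32.0 in controls (SD, n = 3 each), was too dim for the filter.

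Fmo5, an unusual member of the family that inserts oxygen into carbonyl compounds, gave 1485.4, 965.3 and 1421.2 units in Harlequin mice at its brightest probe set and 1078.9, 1566.3 and 1288.5 in controls. Harlequin replicate 2 was the lowest and control replicate 2 the highest. The log2 difference was -0.031 (95% interval -0.47 to 0.41), with 0.105 and 0.03 at the other probe sets of the gene, and it was -0.144 without Harlequin replicate 1. On each of its 3 probe sets Harlequin replicate 2 was the lowest of the 6 mice, whereas on 4 of the 5 Fmo2 probe sets the same mouse was the highest.

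The sulfotransferases also varied little between mice. Sult1c1, known as an olfactory sulfotransferase of the mouse, gave 23587.5, 21603.5 and 23184.5 units in Harlequin mice and 22963.0, 24319.0 and 23391.0 in controls, all within 1.13-fold. Its log2 difference was -0.048 (95% interval -0.18 to 0.09), which covers a ratio of 0.881 to 1.06, and like Cbr2 it lay near the top of the signal scale. Without Harlequin replicate 1 the difference was -0.074. Sult1d1, which conjugates catechols such as dopamine, gave 12243.5, 10889.5 and 12777.1 units in Harlequin mice and 11086.1, 12875.2 and 13642.6 in controls. Harlequin replicate 2 and control replicate 1 were the low mice. The log2 difference was -0.064 (95% interval -0.28 to 0.16), and its other probe set differed by -0.046. Without Harlequin replicate 1 the Sult1d1 difference was -0.082.

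Ephx1, the microsomal epoxide hydrolase that opens reactive epoxides to diols, gave 6797.9, 10725.4 and 9017.1 units in Harlequin mice and 9627.9, 7640.9 and 7594.1 in controls. The Harlequin mice again spanned the whole range, with replicate 1 lowest and replicate 2 highest. The log2 difference was 0.08 (SE 0.17, 95% interval -0.30 to 0.46, limma adjusted p = 0.986). It was 0.255 without Harlequin replicate 1 and -0.073 without Harlequin replicate 2.

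**Figure D3:**
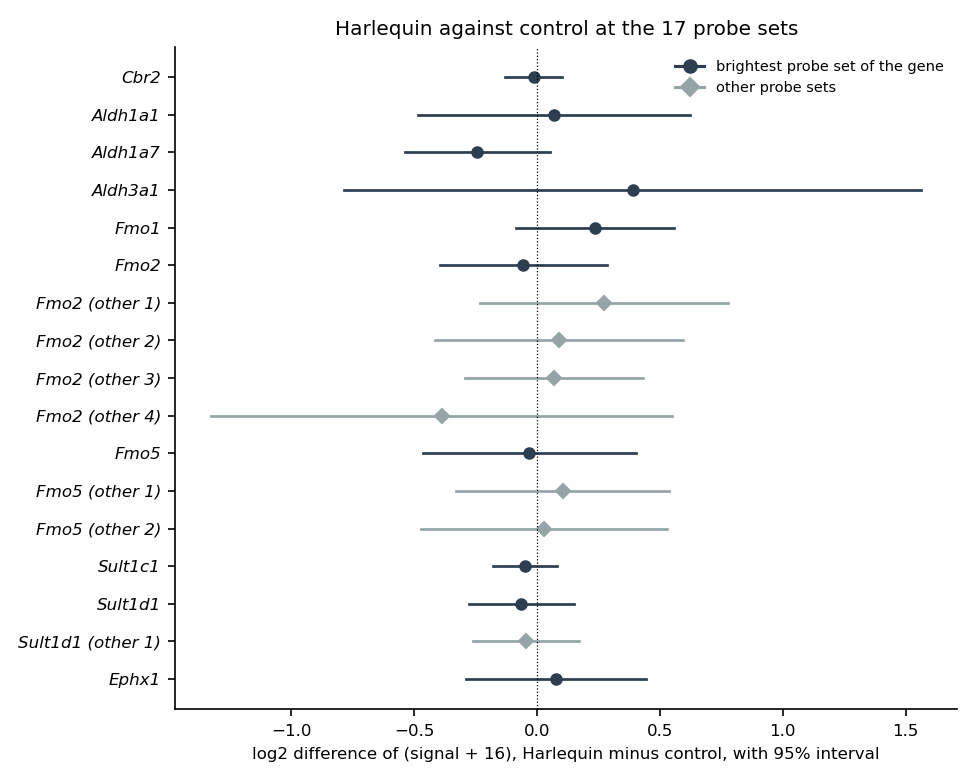
Log2 difference of (signal + 16), Harlequin minus control, with 95% interval (horizontal axis) for the 17 probe sets. Dark circles are the brightest probe set of each gene and grey diamonds the others, and every interval includes 0, narrowest for Cbr2 and widest for the dim Fmo2 probe set and Aldh3a1.

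Spread of single mice was set beside the difference of group means, and where no difference exists the spread tends to be larger. The within-genotype SD exceeded the absolute log2 difference for 8 of 10, all but Aldh1a7 and Fmo1. The share of all genes for which it did was not counted, so this is not read as particular to these enzymes. The median absolute log2 difference was 0.066 for the members and 0.108 over all genes tested, with median SEs of 0.146 and 0.149. The deviation of a mouse from the mean of the 6 arrays reached 1.45 log2 units for Aldh3a1 and 0.68 for Aldh1a1, both in Harlequin replicate 1. The same mouse was the lowest for 4 members, Aldh1a7, Cbr2, Fmo2 and Ephx1, at -0.24, -0.05, -0.39 and -0.32. Harlequin replicate 2 was the highest for Fmo1, Fmo2 and Ephx1 and the lowest for Fmo5, Sult1c1 and Sult1d1. Aldh3a1 and Aldh1a1 also went together among the controls, both lowest in control replicate 1 and highest in control replicate 3. Aldh1a7 was lowest in control replicate 2 among the controls.

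**Figure D4:**
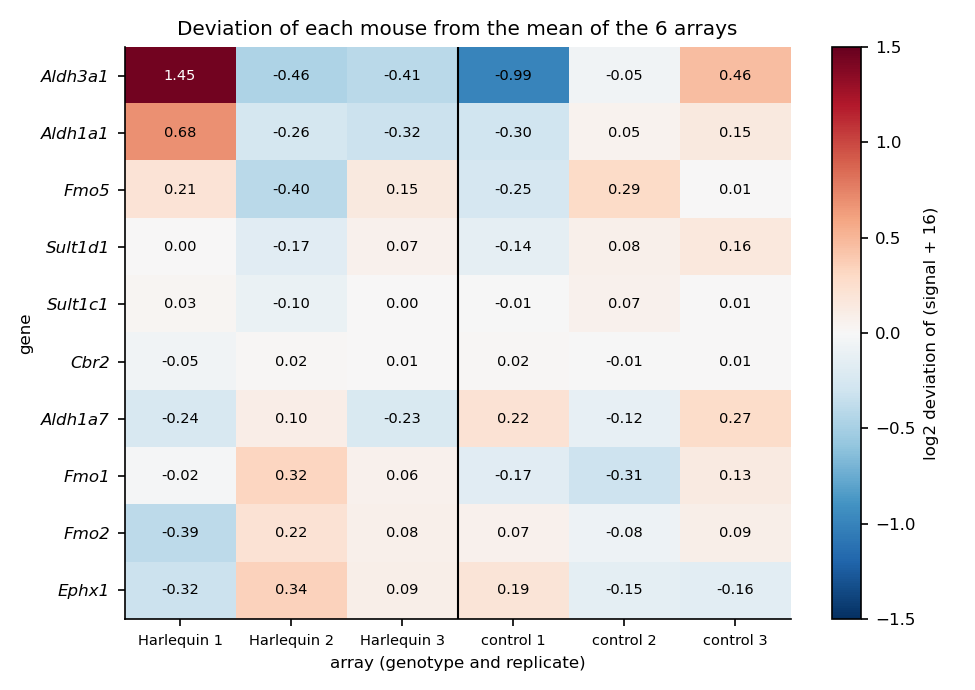
Log2 deviation of each array from the mean of the 6 arrays (columns, Harlequin left of the line and controls right of it) for the 10 genes (rows), red above and blue below the mean. The largest deviations are those of Aldh3a1, 1.45 in Harlequin replicate 1 and -0.99 in control replicate 1, followed by Aldh1a1 at 0.68 in Harlequin replicate 1.

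Across the 6 mice, Aldh1a1 and Aldh3a1 varied together (Pearson r = 0.966, exact permutation p = 0.00556, Spearman rho = 0.829, exact p = 0.0583). Ephx1 ran opposite to Aldh3a1 (r = -0.85, exact permutation p = 0.0236, rho = -0.943, exact p = 0.0167), and Fmo5 went with Sult1c1 (r = 0.90, exact permutation p = 0.00417, rho = 0.943, exact p = 0.0167). Of all 45 pairs of members, 0 passed after Benjamini-Hochberg adjustment of these exact permutation tests, and the lowest adjusted p was 0.125 for r and 0.251 for rho. Without the 2 mice farthest from the median of Aldh1a1, Aldh3a1 or Fmo5, r was 0.743 for Aldh1a1 with Aldh3a1, -0.813 for Aldh3a1 with Ephx1 and 0.725 for Fmo5 with Sult1c1. These 3 pairs were picked after the values were seen, and 2 others, picked likewise, did not keep their r without the 2 farthest mice. For Cbr2 with Fmo2, r was 0.958 (exact permutation p = 0.0167, rho = 0.60, exact p = 0.242) and 0.062 without the 2 farthest mice. For Aldh3a1 with Cbr2, r was -0.897 (exact permutation p = 0.025, rho = -0.943, exact p = 0.0167) and -0.389 without them. Values on 1 array share its hybridization and scaling.

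Aldh3a1 and Aldh1a1 were high in a mouse that also differed in markers of other nasal epithelia and of other cell types. This was not particular to these members. Of the other listed enzymes, Adh1, Adh7 and Cbr3 were also highest in Harlequin replicate 1, at 14532.6, 4748.0 and 1710.2 units. The highest values in the other mice were 12816.3, 3389.1 and 1140.7. Aldh1a2 and Aldh1a3 were lowest in Harlequin replicate 1, at 748.4 and 122.7 units. These enzymes were picked after their values were seen. Of 10 markers of respiratory ciliated and secretory cells, 9 were on the array and 5 of these were highest in Harlequin replicate 1. Their summed signal was 60546 units in Harlequin replicate 1 and 50970 and 46792 in the other Harlequin mice, against 52132 to 55950 in controls. The ciliated cell gene Tppp3 gave 4967.3 units there, against 2438.1 to 3941.3 in the other 5 mice, and the goblet cell mucin Muc5ac gave 655.0, against 18.9 to 218.7. The ciliogenesis regulator Foxj1 did not follow, at 1767.5 units there and 1837.6 in control replicate 2. Ccdc39 did not either, at 2152.7 units there and 2288.3 in control replicate 1. Bpifa1 gave 28456.9 units there and 29634.2 in Harlequin replicate 2. Dnah5 and Tekt1 were highest there by little, at 433.3 and 1659.0 units, against 421.6 in control replicate 3 and 1602.5 in control replicate 1. Reg3g, bright in all mice, gave 20435.7 units there, against 12326.8 to 17719.3 in the other mice. Scgb1a1, the classical secretory cell product of the lower airway, stayed at 4.4 to 18.8 units in all mice.

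The 4 markers of horizontal basal cells summed to 3569, 2386 and 2332 units in the Harlequin mice and to 2244, 3171 and 2907 in controls. Their sum was highest in Harlequin replicate 1 and lowest in control replicate 1, as for Aldh3a1. Of the 4, the basal keratins Krt5 and Krt14 were highest in Harlequin replicate 1, Krt5 at 1679.6 units there and 871.9 to 1404.9 in the other mice. The basal cell regulator Trp63 and the adhesion molecule Icam1 were not, at 737.1 and 216.5 units there, against 1040.0 for Trp63 in control replicate 3 and 249.2 for Icam1 in Harlequin replicate 3. Bpifb9b, a secreted protein listed with the gland products, was far lower in that mouse, at 426.3 units against 10975.6 to 29626.1 in the other 5. Of the 9 gland genes, Obp1a, Obp2a, Bpifb9b and Dmbt1 were lowest in that mouse and 2 were highest. The secreted iron-binding protein Ltf was one, at 14337.1 units against 5855.9 to 8359.4 in the other 5, and the transcription factor gene Sox9 the other, at 352.6 against 232.4 to 348.0. The water channel Aqp5, at 4912.7 units there, lay within the range of the other mice. Tppp3, Muc5ac, Foxj1, Scgb1a1, Krt5, Krt14, Trp63, Icam1, Bpifb9b, Ltf, Sox9 and Aqp5 were picked from the marker lists after their values were seen. The same holds for Ccdc39, Bpifa1, Dnah5, Tekt1 and Reg3g. The sustentacular list summed to 57327 units in Harlequin replicate 1, within the range of the controls. The neutrophil list, which also holds Ltf, summed to 58721 units in that mouse, against 21347 to 51786 in the other mice. Of its 7 genes, 3 were highest in Harlequin replicate 1, Ltf among them, 2 in Harlequin replicate 2 and 2 in control replicate 3. The fibroblast list summed to 16723 units in Harlequin replicate 1, against 19400 to 34736 in the other mice. The part of these cell types in the Aldh3a1 and Aldh1a1 levels was not tested.

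**Figure D5:**
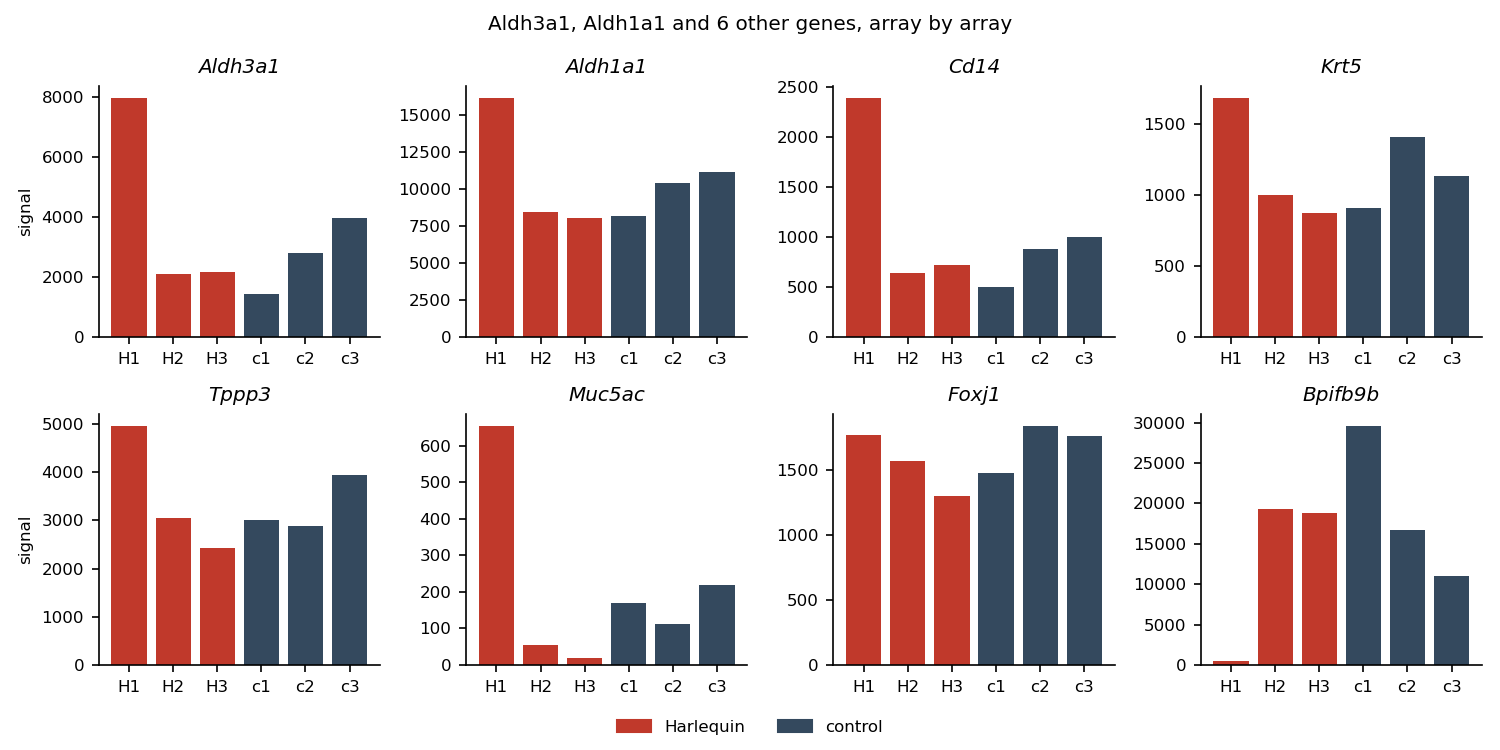
Signal (linear axes from 0) on each array for Aldh3a1, Aldh1a1, Cd14 and 5 marker genes, Harlequin replicates 1 to 3 (H1 to H3) in red and control replicates 1 to 3 (c1 to c3) in dark blue. H1 is highest for Aldh3a1, Aldh1a1, Cd14, Krt5, Tppp3 and Muc5ac, is not highest for Foxj1, and is by far the lowest for Bpifb9b at 426.3.

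Other known settings of Aldh3a1 were read from genes chosen after their values were seen. Krt12, the keratin that marks corneal epithelium, lay at 15.9 to 27.4 units in Harlequin mice and 8.7 to 30.7 in controls, near the bottom of the scale in all 6. Nqo1 and Cyp1a1, which like Aldh3a1 are classical targets of the aryl hydrocarbon receptor, were both highest in Harlequin replicate 3, at 10707.2 and 3521.6 units, and not in replicate 1, at 9131.9 and 1411.2. Gpx2, a glutathione peroxidase of epithelia, is like Nqo1 an NRF2 target. It gave 4187.8, 979.3 and 1085.0 units in Harlequin mice and 920.6, 1978.0 and 1738.1 in controls. Gpx2 was highest in Harlequin replicate 1 and lowest in control replicate 1, as Aldh3a1 was. The part of corneal tissue, the aryl hydrocarbon receptor or NRF2 in the Aldh3a1 level was not tested.

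The genes whose profile over the 6 arrays lay closest to a member were found for the 3 members of largest spread. They were not sought again without Harlequin replicate 1. For Aldh3a1 they were Cd14, the lipopolysaccharide coreceptor, and Ucma, a secreted cartilage protein, with root mean square differences of 0.149 and 0.173 log2 units. Cd14 gave 2392.0, 646.4 and 719.7 units in Harlequin mice and at most 998.5 in controls, with the mice in the same order as for Aldh3a1. For Aldh1a1 the closest were Tmem154 and the transcription factor gene Sox5 (0.063 and 0.073). For Fmo5 they were Gprin2 and Rangrf (0.044 and 0.049).

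No related enzyme passed the test either. Of 75 other genes listed from these and adjoining families, 66 were on the array and 54 passed the filter. In limma 0 of these 54 had an adjusted p under 0.05, and 2 had an unadjusted p under 0.05, where 4.58% of all genes did. Their median log2 difference was 0.002, with 27 higher and 27 lower, and 5 of the 54 had no overlap between genotypes, where 10.4% of all genes had none. The brightest were the aldehyde reductase Akr1a1, at 27098 ± 1430 units in Harlequin and 27107 ± 230 in controls (SD, n = 3 each), then mitochondrial Aldh2, the alcohol dehydrogenases Adh1 and Adh5, the carboxylesterase Ces1d and Papss2, which makes the sulfate donor that sulfotransferases use. Their log2 differences were -0.002, -0.099, 0.23, -0.012, -0.023 and -0.20.

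The 2 smallest p-values of that list belonged to other aldehyde dehydrogenases. Aldh9a1, which oxidises aminoaldehydes, gave 1176.5, 1109.8 and 1037.1 units in Harlequin mice and 851.7, 880.8 and 765.8 in controls. Every Harlequin mouse lay above every control, with a log2 difference of 0.41 (SE 0.11, 95% interval 0.16 to 0.65) that missed the threshold over all genes (limma adjusted p = 0.981). Aldh1l2, the mitochondrial form of the folate enzyme 10-formyltetrahydrofolate dehydrogenase, gave 131.2, 103.1 and 106.3 units in Harlequin mice and 235.5, 170.0 and 188.2 in controls. It was dim and lower in every Harlequin mouse (log2 difference -0.72, SE 0.19, 95% interval -1.16 to -0.28) and did not pass either (limma adjusted p = 0.981). Dhrs7, a short-chain dehydrogenase, differed by 0.20, Aldh1a2, which makes retinoic acid, by -0.51, Akr7a5, an aldo-keto reductase, by 0.30, and the prostaglandin dehydrogenase Hpgd by -0.20, none passing. Papss2 and Aldh5a1, which oxidises succinic semialdehyde, also came among the 8 smallest p-values, with Aldh5a1 at -0.19.

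The upstream sequences were also searched for short motifs on both strands of the 250 bases before each start. Windows were given for 8 of the 10 genes, 10 windows in all, and shares were taken over all 32851 windows of the table. TGACNNNGC, the core bound by NRF2, was in 0 of the 10 windows and in 10.2% of all windows. GCGTG, the core bound by the aryl hydrocarbon receptor, was in 1, that of Sult1d1, and in 28.2% of all. CCAAT was in 4, those of Aldh1a1, Aldh1a7, Ephx1 and Fmo5, and in 33.8% of all, and for the 2 aldehyde dehydrogenases a copy lies within the capitals printed above, 72 bases before the start. The Aldh1a7 window holds another copy outside the capitals. TATAAA was in 4, those of Aldh1a7, Ephx1, Fmo5 and Sult1c1, and in 12.4% of all. A match describes these letters alone.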

How the data were processed

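Total RNA of microdissected olfactory epithelium was measured on 1 Affymetrix array per mouse, from 3 µg of RNA as biotin-labelled cRNA, per the labels' protocols, from mice that arrived at 13 weeks. The authors deposited a linear intensity per probe set, to 1 decimal, between 0.1 and 31786.1, with the same mean on every array after trimming 2% at each end. The software that made them is not given in the sources used here. The titles gave groups and replicates, which the labels call biological.

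Values were analysed as log2(value + 16), leaving out 64 control probe sets. Of the other 45037, 34945 name 1 gene, 932 several and 9160 none in the platform table, and 18032 of 18194 gene identifiers were found in the RefSeq table with 0 changed symbols. Each gene was represented by its probe set of highest mean log2 value, and 13219 genes above the 40th percentile (61.1 units) were tested with limma 3.58.1 (R 4.3.3), lmFit and eBayes with an intensity trend, two-sided, Benjamini-Hochberg adjusted over all genes, called under 0.05. Differences are Harlequin minus control and understate changes of dim genes. Intervals cover 95%, and precision is limited by the 3 arrays of each genotype. Single probe sets were fitted in the same way over 27022 probe sets, and the dim Fmo2 probe set in a fit without the filter. Exact permutation tests were two-sided over all 720 orders of 6 arrays (Python 3.11.15). The fit was checked on simulated data. Same-numbered arrays did not pair: their deviations from the group means correlated at -0.237, -0.03 and 0.058.

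Members, lists, alternatives and the naming rule were chosen with earlier results of these data known. It named all 10 members, up to 8 listed enzymes of smallest p and up to 6 of highest control signal, Aifm1, and the 2 genes of nearest profile for each of the 3 members that varied most. Alternatives were other pseudocounts (1 and 64), no filter or the 60th percentile, quantile normalization, median scaling, no trend, robust moderation, array weights, other treatments of several probe sets, a replicate block, and each array left out. Promoter sequences are from RefSeq, build GRCm38.p6.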

Additional observations from a re-analysis of the deposited data

How the results depend on the processing

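No member and none of the other listed enzymes passed under any of the 18 alternative fits run, and the lowest adjusted p of a member was 0.892. Over 10 members and these fits, 164 of 180 differences kept their sign and 16 did not. Many of these could not turn. The filter, trend, moderation and replicate block settings leave a log2 difference as it is. The other treatments of several probe sets do so for the 7 members with 1 probe set. The share that kept its sign is therefore no measure of stability. Apart from leaving out an array, the sign turned for Cbr2 with quantile normalization (0.049) and median scaling (0.017), Sult1c1 with quantile normalization (0.013), Fmo2 with array weights (0.017) and Fmo5 with the mean over probe sets (0.034) or without suffixed probe sets (0.03). With 1 array left out the differences ran from -0.254 to 0.245 for Aldh1a1, -0.239 to 0.718 for Aldh3a1, -0.026 to 0.009 for Cbr2, -0.178 to 0.124 for Fmo2, -0.162 to 0.163 for Fmo5, -0.15 to 0.002 for Sult1d1 and -0.073 to 0.255 for Ephx1, while Aldh1a7, Fmo1 and Sult1c1 kept their sign. The cause was not tested. The count of all genes called was 4, against 0 without an intensity trend, 0 with the replicate block and 7 of 27022 probe sets tested singly, and 0 to 3 with 1 array left out. The block changed no call of a member. The median control rank of the members was 416, and 239.5 with the mean over each gene's probe sets. Fmo2 and Fmo5 went the other way, from 1563 and 3716 to 2463 and 4232.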
